A study of Homo sapiens with 24 samples.

Results

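The genes described here are 39 mesenchymal and extracellular matrix genes, of 20046 genes measured in clones of human tumour cell lines with and without the telomere protein Rap1. They were chosen by name, and comprise regulators of the epithelial-mesenchymal transition, collagens, collagen-modifying enzymes and matrix proteins. Matrix proteases and S100 genes were not included. All 39 were on the array, with 57 probes in all, and 25 of them had a single probe.

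Each array measured total RNA from 1 clone of a cell line. HCT116 is a colorectal carcinoma line with epithelial features, and HT1080 is a fibrosarcoma line, a tumour of mesenchymal origin. HCT116 was represented by clones 15, 20 and 23 as wild type and clones 10, 21 and 28 as knockout, and HT1080 by clones 2 and 9 as wild type and clones 8 and 21 as knockout, with 2 arrays, A and B, for each clone. The knockout clones carry TALEN-made disruptions of the gene for Rap1 (TERF2IP), and no other allele and no treatment is named for either genotype. A number repeated between lines or genotypes does not link clones. Every clone is a separate cell lineage, so a difference between genotypes also includes whatever differs between the lineages. Whether A and B came from separate cultures is not stated in the labels. The 4 arrays of the third line, ARPE-19, were not used here.

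Mesenchymal cells lay down and anchor themselves to a matrix of collagens, fibronectin and other glycoproteins, and transcription factors of the TWIST, SNAI and ZEB families repress epithelial adhesion genes and favour this state. Collagen chains are hydroxylated and folded in the endoplasmic reticulum with the help of enzymes and of the chaperone HSP47, and are crosslinked outside the cell by lysyl oxidases. Vimentin, N-cadherin and fibronectin are widely used markers of mesenchymal cells.

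Values are on a log scale taken as log2, and each probe had been centred on the median of the arrays of its own line. A value of 0 is therefore the middle of that line, and values carry no level: whether a gene was expressed at all could not be read, levels could not be compared between genes or lines, and the identity of the lines could not be checked from their markers. The median value over all genes lay between -0.035 and 0.051 on each of the 20 arrays. The targeted gene TERF2IP was between 1.11 and 1.25 on the 4 wild-type arrays of HT1080 and between -1.79 and -1.11 on the 4 knockout arrays. In HCT116 its values overlapped, from -0.28 to 1.45 in the wild type and from -0.77 to 0.048 in the knockout, so that genotypes of that line are given as labelled.

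The first question was whether the matrix genes differed between the genotypes within each line, with the mean of the 2 arrays of a clone as 1 replicate. In HCT116, 0 of the 39 genes passed an adjusted p of 0.05 (limma, Benjamini-Hochberg over all genes tested), where 0.0150% of all genes did. At an unadjusted p of 0.05, 6 members passed (TWIST1, TAGLN, ACTA2, COL6A1, COL12A1 and SERPINH1), against 8.19% of all genes. In HT1080, 0 of 39 passed the adjusted threshold, where 0.00998% of all genes did, and 5 members (TWIST1, CDH2, COL6A2, LOX and SERPINH1) passed the unadjusted one, against 5.01% of all genes. The median knockout-minus-wild-type difference of the 39 genes was 0.018 in HCT116 and -0.039 in HT1080, beside 0.048 and -0.026 over all genes. In HCT116, 22 members had a positive and 17 a negative difference, where 65.1% of all genes were positive and 34.9% negative, and these numbers changed to 17 and 22 when each array was centred on its median. In HT1080, 17 were positive and 22 negative under either scaling, where 42.7% of all genes were positive and 57.3% negative on the deposited scale. Since RNA of a whole culture was measured, fewer cells with a transcript and less transcript per cell cannot be told apart in any of these differences.

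**Figure D1:**
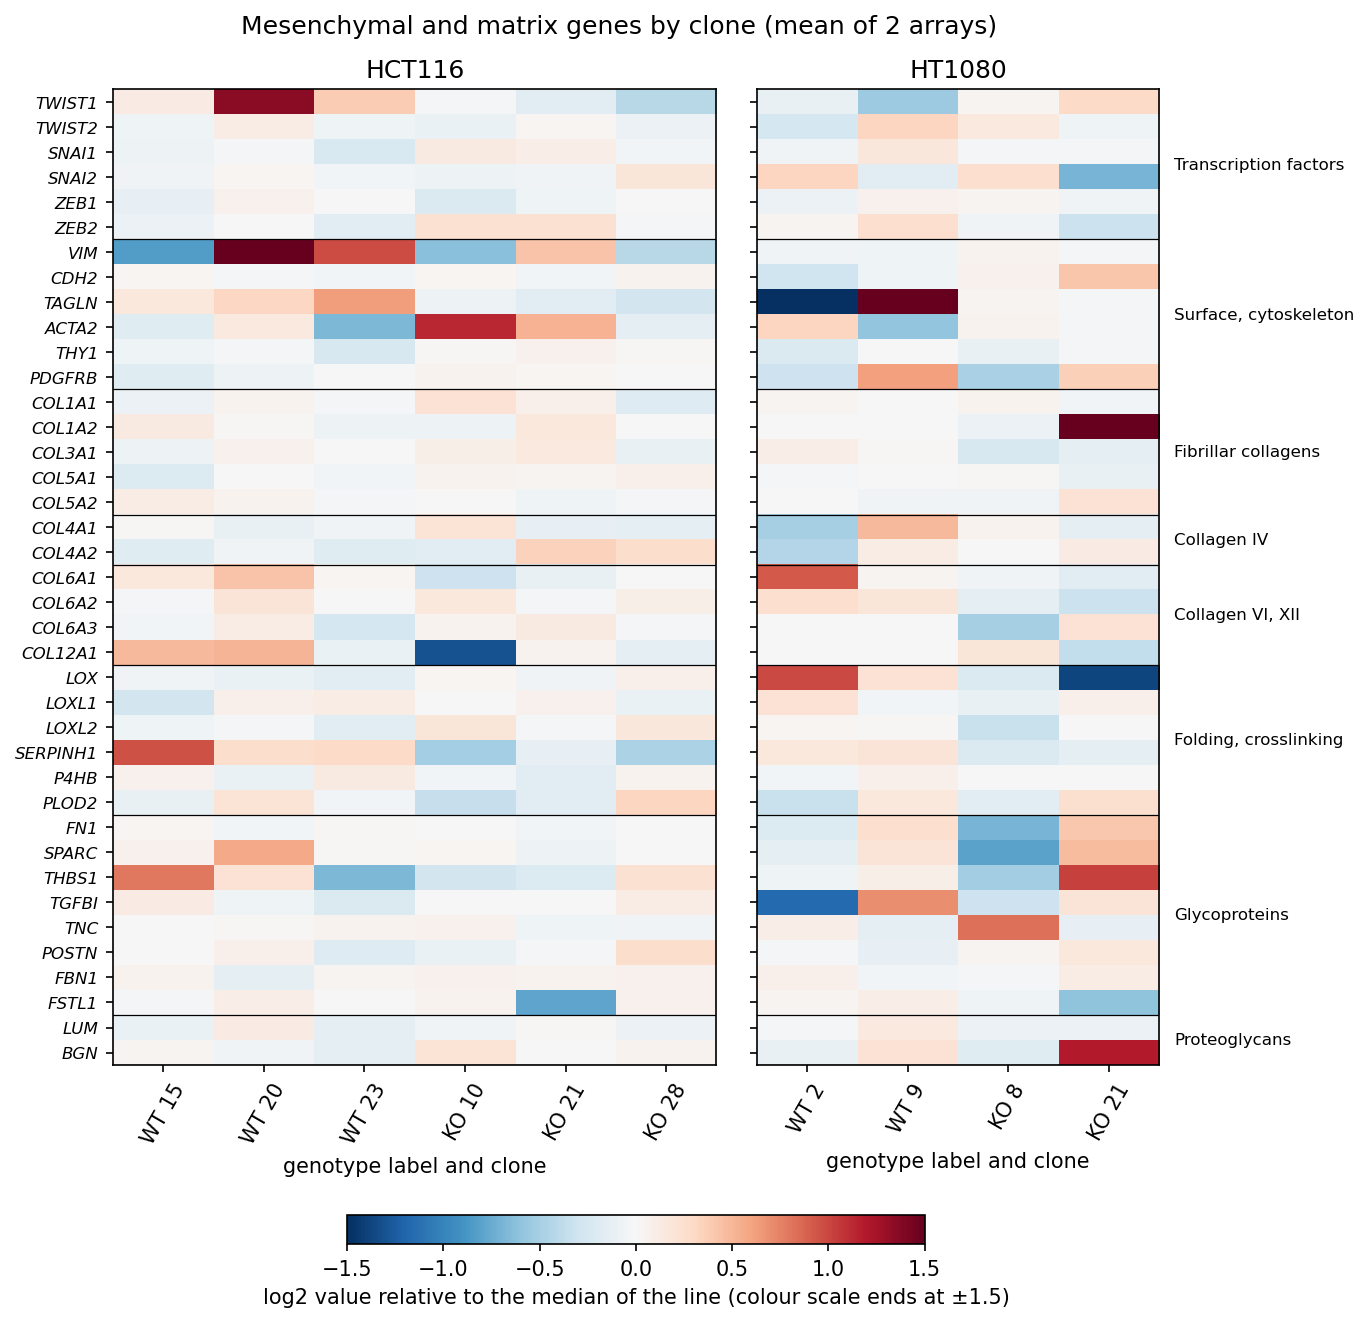
Clone means (log2, centred on the median of each line) of the 39 genes, grouped by role, for the 6 HCT116 and the 4 HT1080 clones; colour gives the value. Wide contrasts lie between clones of the same genotype, such as TAGLN in the HT1080 wild-type clones 2 and 9 and VIM in the HCT116 wild-type clones 15 and 20.

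Among the transcription factors in HCT116, TWIST1, a basic helix-loop-helix factor that drives mesenchymal programmes, stood lower in the clones labelled knockout. Its wild-type arrays read 0.019 and 0.22 for clone 15, 1.24 and 1.47 for clone 20, and 0.35 and 0.41 for clone 23. The knockout arrays read -0.020 and -0.030 for clone 10, -0.019 and -0.30 for clone 21, and -0.31 and -0.53 for clone 28. No knockout array reached any wild-type array, but clone 20 stood far above the other wild-type clones. The difference was -0.82 ± 0.28 (SE, 3 clones against 3; limma, adjusted p = 0.603), and without clone 20 it was -0.45. The other 5 factors (TWIST2, SNAI1, SNAI2, ZEB1 and ZEB2) had differences between -0.067 and 0.22, and the genotypes overlapped in each.

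The cytoskeletal genes of HCT116 included differences of either sign, and none passed. TAGLN encodes transgelin, an actin-binding protein of smooth muscle and fibroblasts, and its arrays read 0.024 and 0.30, 0.26 and 0.37, and 0.57 and 0.69 in wild-type clones 15, 20 and 23. In knockout clones 10, 21 and 28 they read -0.024 and -0.12, -0.090 and -0.22, and -0.13 and -0.43. All knockout arrays were thus below all wild-type arrays, with a difference of -0.54 ± 0.13 (adjusted p = 0.477). The other 2 TAGLN probes gave differences of -0.13 and 0.25, so the probes disagreed, and their mean gave -0.14. ACTA2, smooth muscle alpha-actin, read -0.21 and -0.15, 0.058 and 0.23, and -0.65 and -0.69 in the wild-type clones, and 1.05 and 1.20, 0.53 and 0.51, and -0.24 and -0.058 in the knockout clones. Knockout clones 10 and 21 exceeded every wild-type clone and clone 28 did not, and the difference of 0.74 ± 0.31 (adjusted p = 0.61) was 0.42 without clone 10. VIM, the intermediate filament protein vimentin, read -0.70 and -0.98, 1.34 and 1.65, and 1.05 and 0.91 in the wild-type clones, and -0.64 and -0.61, 0.47 and 0.39, and -0.39 and -0.44 in the knockout clones. Wild-type clone 15 stood below all knockout clones and the other wild-type clones above them, so that the difference of -0.75 ± 0.54 (adjusted p = 0.684) spans groups that overlap. Without wild-type clone 15 it was -1.44, and without wild-type clone 20 it was -0.28. The second VIM probe had a difference of -0.35 and followed the first across the 6 clones (r = 0.994).

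The member with the smallest p-value in HCT116 was SERPINH1, which encodes HSP47, the procollagen chaperone of the endoplasmic reticulum. Wild-type clones read 0.86 and 1.04 (clone 15), 0.11 and 0.43 (clone 20), and 0.39 and 0.20 (clone 23), while knockout clones read -0.49 and -0.54 (clone 10), -0.11 and -0.15 (clone 21), and -0.50 and -0.44 (clone 28). Every knockout array was below every wild-type array. The difference was -0.87 ± 0.19 (adjusted p = 0.397). SERPINH1 lies on chromosome 11. Its promoter is shown because this gene had the largest difference in HCT116 and was also lower in every knockout clone of HT1080. The sequence runs 5′ to 3′ on the plus strand of GRCh38.p14, chr11:75562003-75562302 (RefSeq), from 250 bases before to 50 after the annotated start, and none of the motifs searched in member promoters is in this window. The other SERPINH1 window of the table, which begins further downstream, holds the E-box and the GC box named with the motif counts.
SERPINH1: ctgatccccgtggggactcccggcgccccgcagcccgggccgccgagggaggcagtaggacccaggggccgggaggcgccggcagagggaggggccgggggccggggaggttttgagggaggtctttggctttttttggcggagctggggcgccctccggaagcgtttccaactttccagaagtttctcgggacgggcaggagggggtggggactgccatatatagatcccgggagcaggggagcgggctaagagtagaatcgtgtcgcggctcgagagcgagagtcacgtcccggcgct

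The collagens of HCT116 separated little by genotype. COL12A1, a chain of fibril-associated collagen XII, read 0.65 and 0.33, 0.57 and 0.45, and -0.11 and -0.082 in wild-type clones 15, 20 and 23, and -1.45 and -1.17, 0.11 and -0.0077, and 0.0077 and -0.31 in knockout clones 10, 21 and 28. The low values were those of clone 10, the genotypes overlapped, and the difference of -0.77 ± 0.33 (adjusted p = 0.61) was -0.35 without clone 10. The second COL12A1 probe gave 0.21 and did not follow the first (r = 0.0025 over 6 clones), and the mean of the probes gave -0.28. COL6A1, a chain of the microfibrillar collagen VI, read 0.16 and 0.16, 0.35 and 0.51, and -0.075 and 0.14 in the wild-type clones and -0.45 and -0.18, -0.097 and -0.12, and 0.075 and -0.075 in the knockout clones. Its clone means did not overlap although single arrays did, and the difference was -0.35 ± 0.13 (adjusted p = 0.605). COL4A2, a basement membrane collagen chain, read -0.44 and 0.069, 0.11 and -0.20, and -0.014 and -0.35 in the wild-type clones and -0.12 and -0.21, 0.12 and 0.59, and 0.014 and 0.52 in the knockout clones. The arrays of a clone differed by up to 0.51 for this gene, and the difference between genotypes was 0.29 ± 0.14 (adjusted p = 0.626), with 0.12 from the first arrays alone and 0.46 from the second. The 5 fibrillar collagen genes (COL1A1, COL1A2, COL3A1, COL5A1 and COL5A2) had differences between -0.074 and 0.14.

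Of the matrix glycoproteins in HCT116, the largest differences came from single clones. FSTL1, a secreted follistatin-like glycoprotein, read between -0.037 and 0.18 on all wild-type arrays, 0.0054 and 0.091 for knockout clone 10, 0.13 and -0.011 for clone 28, and -0.84 and -0.74 for clone 21. The difference of -0.25 ± 0.21 (adjusted p = 0.713) became 0.029 without clone 21. SPARC, a collagen-binding matricellular protein, read 0.14 and -0.0098, 0.53 and 0.61, and -0.10 and 0.13 in the wild-type clones and 0.22 and -0.16, -0.10 and -0.054, and 0.00091 and -0.00091 in the knockout clones. Here wild-type clone 20 stood apart, and the difference of -0.23 ± 0.14 (adjusted p = 0.659) became -0.055 without it. The proteoglycan genes LUM and BGN had differences of -0.00065 and 0.13.

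**Figure D2:**
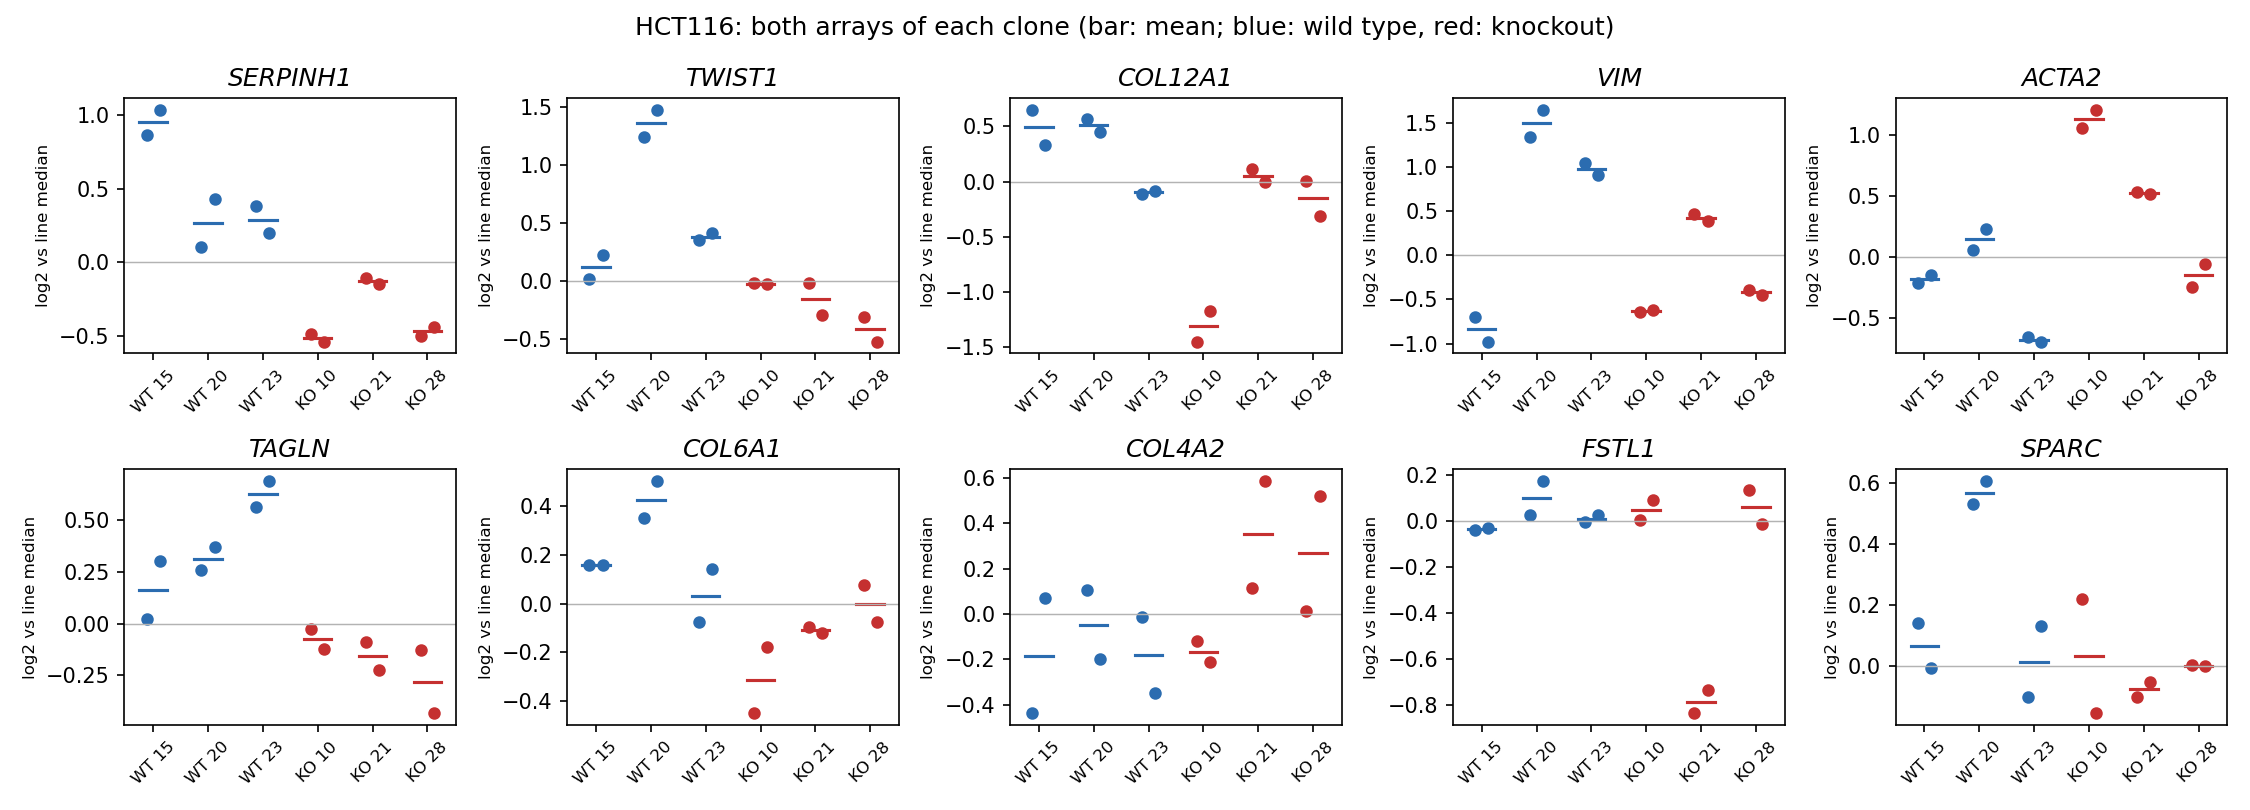
Values of the 10 members with the largest genotype differences in HCT116 on each of the 12 arrays (log2, centred), by clone, with wild-type and knockout clones in separate colours. SERPINH1, TWIST1 and TAGLN show every knockout array below every wild-type array, whereas the VIM values of the genotypes overlap and COL12A1 and FSTL1 are low in knockout clones 10 and 21 respectively.

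In HCT116 the clone means did not overlap in 4 members that were lower in the knockout (SERPINH1, TWIST1, TAGLN and COL6A1), a pattern seen in 3.58% of all genes. They did not overlap in 6 members that were higher (THY1, PDGFRB, COL5A1, LOX, LOXL2 and FBN1), against 11.8% of all genes, with differences between 0.077 and 0.20. With each array centred on its median, 0 members were higher without overlap (7.86% of all genes on that scale) and 6 were lower (5.13% of all genes), the same 4 with COL5A2 and SPARC.

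In HT1080 the largest difference was in LOX, lysyl oxidase, which crosslinks collagen and elastin. Its arrays read 1.03 and 0.95 in wild-type clone 2, 0.20 and 0.24 in wild-type clone 9, -0.20 and -0.24 in knockout clone 8, and -1.34 and -1.41 in knockout clone 21. The clones lay at separate steps and no knockout array reached a wild-type array. The difference was -1.40 ± 0.46 (SE, 2 clones against 2; adjusted p = 0.885), and it was -0.82 without knockout clone 21. The promoter of LOX, on chromosome 5, is shown for this reason (minus strand of GRCh38.p14, chr5:122078210-122078509, RefSeq). Its capitals mark a match to GGGCGG that starts 79 bases before the annotated start. An E-box (CAGGTG or CACCTG) is in another LOX window, which is not shown, and not in this one.
LOX: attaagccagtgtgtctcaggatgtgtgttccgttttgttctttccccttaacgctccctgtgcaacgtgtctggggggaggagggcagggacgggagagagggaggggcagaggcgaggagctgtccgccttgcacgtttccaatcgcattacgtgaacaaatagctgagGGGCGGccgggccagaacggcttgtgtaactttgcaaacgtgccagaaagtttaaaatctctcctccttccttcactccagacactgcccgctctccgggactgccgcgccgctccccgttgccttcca

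Of the 6 genes of collagen folding and crosslinking, LOX included, 5 had negative differences in HT1080 (median -0.15), where 57.3% of all genes had (median -0.026). SERPINH1 read 0.14, 0.17, 0.19 and 0.19 on the wild-type arrays and -0.22, -0.21, -0.14 and -0.14 on the knockout arrays. The clones of a genotype lay close together here, and the groups did not overlap. The difference was -0.35 ± 0.093 (adjusted p = 0.885). LOXL2, a further crosslinking enzyme, was lower without overlap of the clone means at -0.19 ± 0.14, and LOXL1, P4HB and PLOD2 had differences of -0.10, -0.019 and 0.12.

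Of the collagen VI genes in HT1080, COL6A1 and COL6A2 separated the genotypes and COL6A3 did not. COL6A1 read 0.98 and 0.87 in wild-type clone 2, 0.040 and 0.042 in wild-type clone 9, -0.040 and -0.055 in knockout clone 8, and -0.097 and -0.21 in knockout clone 21. Wild-type clone 2 carried most of the difference of -0.58 ± 0.30 (adjusted p = 0.885), which was -0.14 without it and -1.03 without wild-type clone 9. COL6A2 read 0.17, 0.34, 0.071 and 0.30 on the wild-type arrays and -0.071, -0.21, -0.17 and -0.48 on the knockout arrays. All knockout arrays were below all wild-type arrays, with a difference of -0.45 ± 0.11 (adjusted p = 0.885). The other 2 COL6A2 probes gave -0.12 and -0.20, and the mean of the 3 probes gave -0.26, while the first arrays alone gave -0.24 and the second -0.66. COL6A3 had a difference of -0.14, and knockout clone 21 was the highest of its clones. COL6A1 and COL6A2 are neighbours on chromosome 21, 93064 bases apart, and the median of the 239 genes measured on that chromosome was between -0.0095 and 0.0075 in the 4 HT1080 clones.

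COL1A2, a chain of the fibrillar collagen I, was near 0 in 3 of the 4 HT1080 clones. Its arrays read -0.0025 and 0.0025 in wild-type clone 2, 0.096 and -0.12 in wild-type clone 9, -0.16 and -0.012 in knockout clone 8, and 1.83 and 1.75 in knockout clone 21. The genotype difference of 0.86 ± 0.61 (adjusted p = 0.885) was that of clone 21, and without this clone it was -0.079. The partner chain COL1A1 ranged only from -0.16 to 0.19 over the same arrays.

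BGN, the proteoglycan biglycan, had the same form in HT1080. Its wild-type arrays read -0.050, -0.18, 0.050 and 0.37, with -0.081 and -0.29 in knockout clone 8, and 1.19 and 1.20 in knockout clone 21. The difference of 0.46 ± 0.46 (adjusted p = 0.903) was -0.23 without clone 21. TNC, the matrix glycoprotein tenascin-C, was instead high in knockout clone 8, at 0.97 and 0.68, while wild-type arrays read 0.17, 0.041, -0.041 and -0.24 and clone 21 read -0.16 and -0.086. Its difference of 0.37 ± 0.33 (adjusted p = 0.897) was -0.10 without clone 8. FSTL1 read 0.053, 0.031, 0.031 and 0.16 on the wild-type arrays, and clone 8 gave -0.031 and -0.094 where clone 21 gave -0.61 and -0.60. The groups did not overlap, but clone 21 made up most of the difference of -0.40 ± 0.20 (adjusted p = 0.885), which was -0.13 without it and -0.67 without clone 8.

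Among regulators and surface genes in HT1080, TWIST1 had a difference of the sign opposite to that in HCT116. Its arrays read 0.018 and -0.23 in wild-type clone 2, -0.51 and -0.58 in wild-type clone 9, 0.089 and -0.018 in knockout clone 8, and 0.28 and 0.30 in knockout clone 21. The clone means did not overlap, although an array of wild-type clone 2 reached one of knockout clone 8, and the difference was 0.49 ± 0.18 (adjusted p = 0.885), or 0.27 without wild-type clone 9. CDH2, the mesenchymal adhesion molecule N-cadherin, read -0.30, -0.29, -0.038 and -0.088 in the wild type and 0.038, 0.096, 0.47 and 0.36 in the knockout. All its knockout arrays were above all wild-type arrays, with a difference of 0.42 ± 0.16 (adjusted p = 0.885) that was 0.25 without knockout clone 21. VIM ranged only from -0.13 to 0.092 over the HT1080 arrays.

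**Figure D3:**
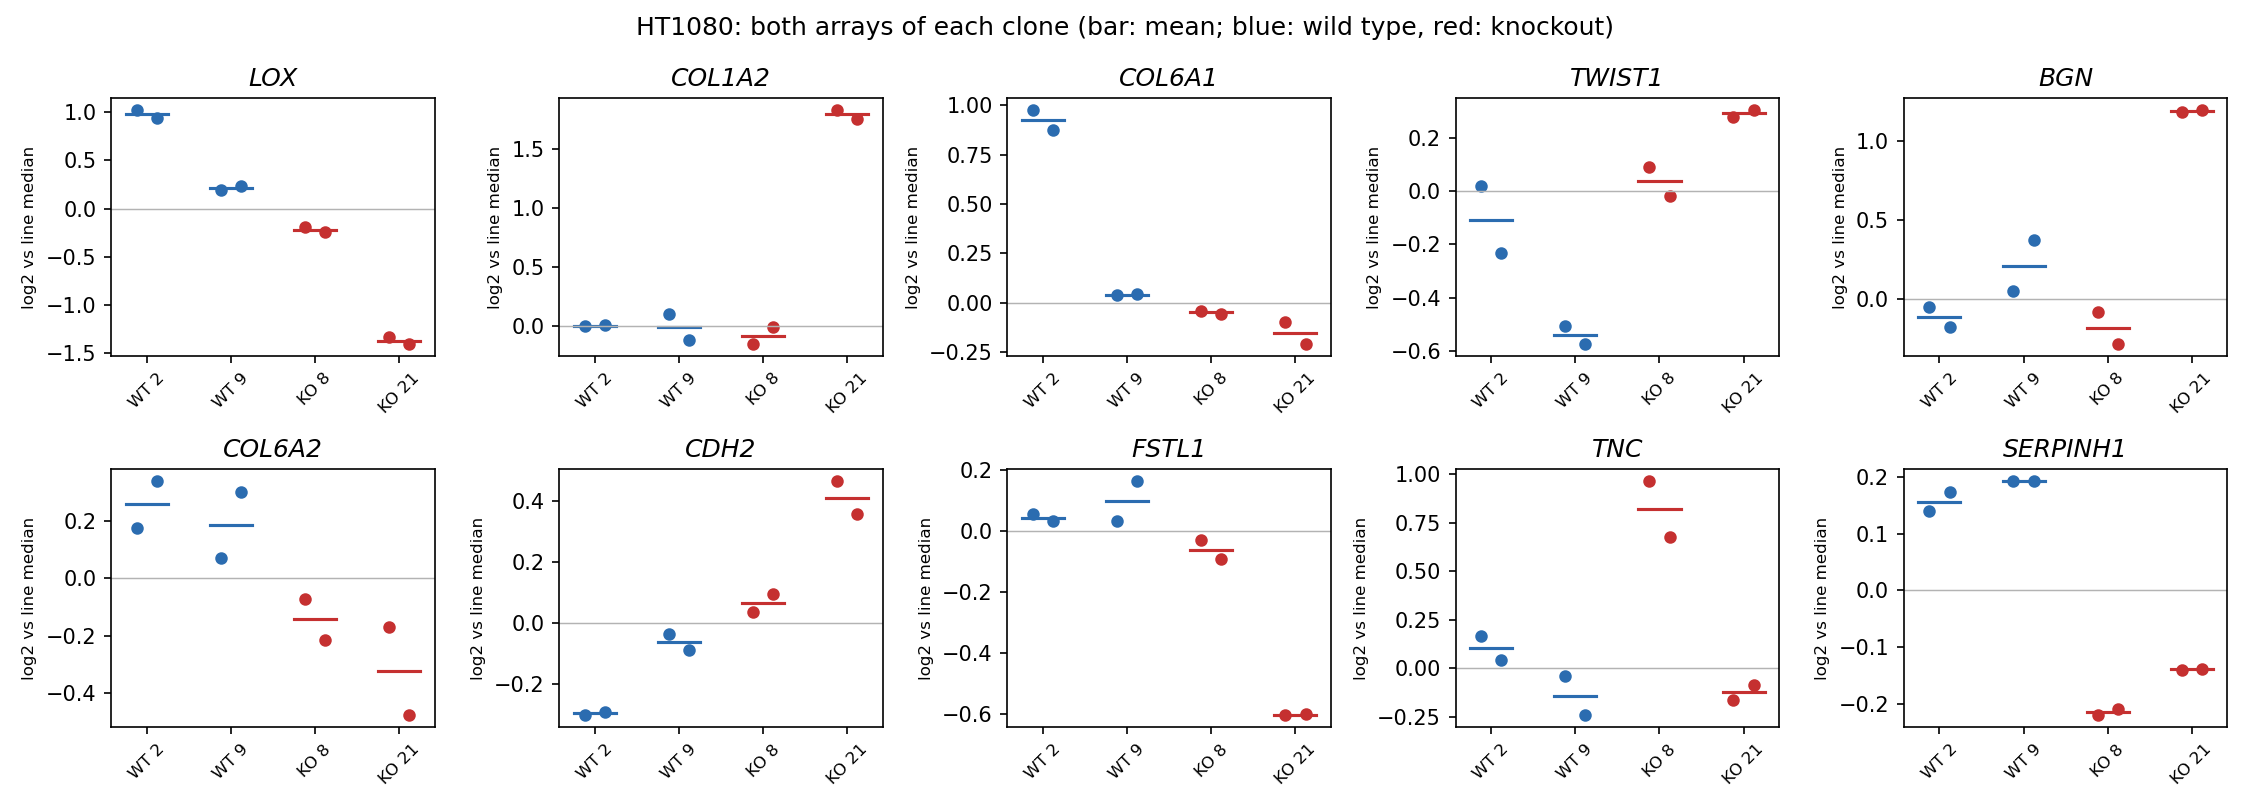
Values of the 10 members with the largest genotype differences in HT1080 on each of the 8 arrays (log2, centred), by clone, with wild-type and knockout clones in separate colours. LOX, COL6A1, COL6A2, FSTL1, SERPINH1 and CDH2 separate the genotypes on every array, although FSTL1 is far lower in knockout clone 21 than in clone 8. COL1A2 and BGN depart from the other clones in knockout clone 21 and TNC in knockout clone 8.

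In HT1080, 9 members were lower without overlap of the clone means (LOX, COL6A1, COL6A2, FSTL1, SERPINH1, ZEB2, COL3A1, LOXL2 and LUM), where 22.5% of all genes were, and 4 were higher (TWIST1, CDH2, VIM and POSTN), where 14.2% of all genes were. For the members this is 23.1% and 10.3%, near the shares of all genes. With arrays centred, the same numbers of members were higher and lower, where 15.9% and 20.1% of all genes were. The second probes of VIM and POSTN had differences of the other sign, -0.11 and -0.10, and 2 members were higher without overlap with the mean of the probes or with the first arrays alone.

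The lines were then set side by side. The differences had the same sign in 18 members, 9 higher and 9 lower in both lines, and opposite signs in the other 21. Over all genes, 65.1% were higher in HCT116 and 57.3% lower in HT1080, and the share with opposite signs was not counted. SERPINH1 and COL6A1 were the 2 members whose clone means were lower in the knockout without overlap in both lines, a pattern found in 0.559% of all genes, and 0 members were higher without overlap in both, against 1.05%. For COL6A1 the nearest clone means were close, at 0.034 (wild type) and 0 (knockout) in HCT116 and 0.041 and -0.048 in HT1080. For SERPINH1 they were 0.27 and -0.13 in HCT116 and 0.16 and -0.14 in HT1080. TWIST1, LOX and LOXL2 did not overlap in either line but in opposite directions, as did 3.96% of all genes. For LOX in HCT116 the nearest clone means were -0.056 (wild type) and -0.052 (knockout), and single arrays overlapped. For LOXL2 in HT1080 they were 0.023 and 0.0012. With arrays centred, 0 members were higher without overlap in HCT116, so LOX and LOXL2 did not keep this pattern. The difference between the lines was tested as an interaction, and 0 of 39 members passed, with 0.0499% of all genes passing and 8.95% at an unadjusted p of 0.05. For LOX the HCT116 difference minus the HT1080 difference was 1.52 ± 0.42 (adjusted p = 0.468) and for TWIST1 it was -1.31 ± 0.43 (adjusted p = 0.515). In a fit of both lines together, which was added after seeing the data, 0 members and 0 of 20046 genes passed, while 4.71% of all genes passed an unadjusted p of 0.05. In that fit SERPINH1 had a difference of -0.66 ± 0.15 (adjusted p = 0.848) and COL6A1 of -0.44 ± 0.15 (adjusted p = 0.995).

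**Figure D4:**
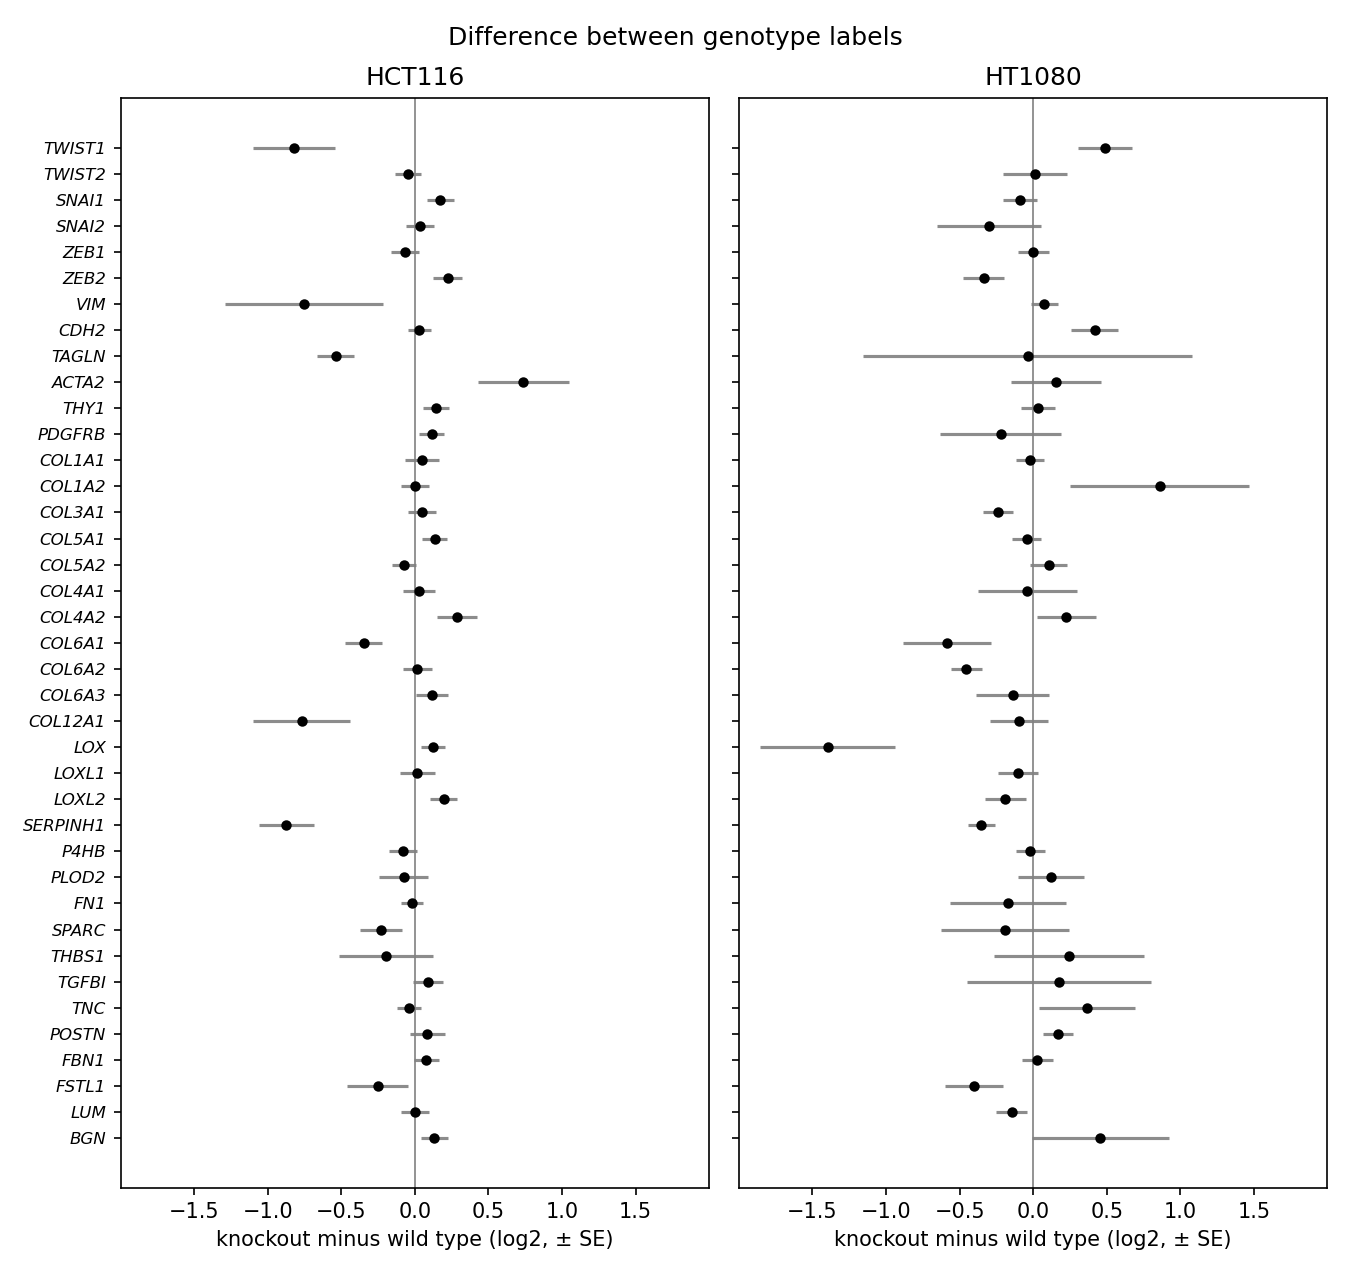
Knockout-minus-wild-type difference of each of the 39 genes in HCT116 and HT1080 (log2, points, with SE bars), ordered by role. SERPINH1 and COL6A1 are negative in both lines, TWIST1 and LOX have opposite signs, and none of the 39 passed the adjusted threshold in either line.

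The second question was how much the genes differed between clones of the same genotype. This test took the 2 arrays of a clone as repeats, so its error is that between arrays of a clone and may be technical. The arrays A and B of a clone differed by a median of 0.12 in HCT116 and 0.108 in HT1080 over the members. The range over clone means had a median of 0.349 in HCT116 and 0.578 in HT1080, and exceeded 1 in 6 and 11 members. Clones of a genotype differed in 8 members among the HCT116 wild-type clones (20.5%, where 11.9% of all genes did) and in 7 among the HCT116 knockout clones (17.9%, where 14.5% did). The numbers were 13 between the HT1080 wild-type clones (33.3%, where 15.7% of all genes did) and 14 between the HT1080 knockout clones (35.9%, where 5.56% did). The probe that stands for a gene was the most variable of its probes, which favours genes with several probes in these counts.

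**Figure D5:**
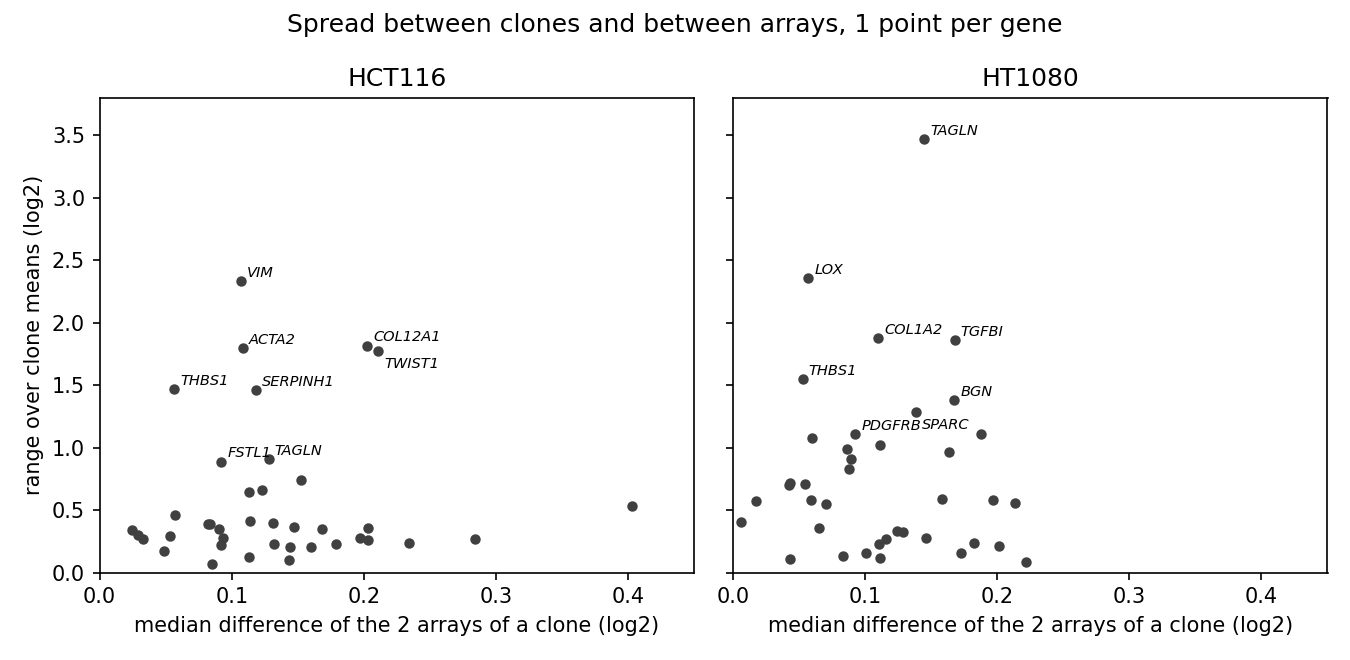
Range over clone means (vertical axis, log2) against the median absolute difference between the 2 arrays of a clone (horizontal axis, log2) for each of the 39 genes in HCT116 and HT1080. The ranges reach 2.33 for VIM in HCT116 and 3.47 for TAGLN in HT1080, whereas the arrays of a clone differ by a median of 0.12 in HCT116 and 0.108 in HT1080.

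Among the HCT116 wild-type clones, VIM differed most, with a range of 2.33 from clone 15 up to clone 20 (limma F-test, adjusted p = 4.38e-08). THBS1, the matricellular protein thrombospondin-1, followed with a range of 1.47 (adjusted p = 3.08e-06). Its arrays read 0.75 and 0.84 in clone 15, 0.20 and 0.23 in clone 20 and -0.67 and -0.67 in clone 23, so that clone 15 was high for THBS1 and low for VIM. TWIST1 had a range of 1.23 (adjusted p = 3.2e-05), ACTA2 of 0.82 (adjusted p = 0.000492) and SERPINH1 of 0.68 (adjusted p = 0.00192). LOXL1, COL12A1 and SPARC were the other members that differed among these clones. Wild-type clone 20 held the highest value of 10 of the 39 genes, 5 of them above 0.3. Wild-type clone 23 held the lowest of 13, 2 of them below -0.3. The median over all genes was also lowest in clone 23, at -0.032. Such ranks were not counted over all genes.

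Among the HCT116 knockout clones, COL12A1 had the widest range, 1.36, with clone 10 lowest (adjusted p = 9.86e-06). ACTA2 had a range of 1.28 with clone 10 highest (adjusted p = 3.14e-06), and VIM one of 1.05 with clone 21 highest (adjusted p = 5.52e-05). FSTL1, low in clone 21, had a range of 0.85 (adjusted p = 3.39e-05). PLOD2, a lysyl hydroxylase that prepares collagen for crosslinking, read -0.35 and -0.33 in clone 10, between -0.33 and -0.0053 in clone 21, and 0.33 and 0.31 in clone 28, a range of 0.66 (adjusted p = 0.00359). THBS1 and POSTN, which encodes periostin, also differed. The second POSTN probe did not follow the first (r = -0.313 over the 6 HCT116 clones), and POSTN did not pass with the mean of its probes. The clone at the extreme thus varied from member to member, also between the cytoskeletal genes ACTA2 and VIM.

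Between the HT1080 wild-type clones, the differences are given as clone 9 minus clone 2. TAGLN differed most, by 3.47 ± 0.11 (adjusted p = 1.99e-08), from -1.79 and -1.59 in clone 2 to 1.72 and 1.85 in clone 9. The knockout clones lay between these, from -0.094 to 0.12. Of the other TAGLN probes, 1 followed across the 4 clones (r = 0.986) and 1 did not (r = 0.21). TGFBI, a secreted adhesion protein induced by TGF-beta, was higher in clone 9 by 1.86 ± 0.12 (adjusted p = 2.12e-06), with -1.09 and -1.23 in clone 2 and 0.60 and 0.79 in clone 9. PDGFRB, the PDGF receptor beta of fibroblasts and pericytes, was higher by 0.93 ± 0.10 (adjusted p = 0.000124). ACTA2 was lower in clone 9, at -0.91 ± 0.098 (adjusted p = 0.000111), although TAGLN, likewise a smooth muscle cytoskeletal gene, was higher. COL6A1 at -0.88 and LOX at -0.77 were lower in clone 9 as well.

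Of the transcription factors, TWIST2 was higher in HT1080 clone 9 than in clone 2 by 0.59 ± 0.11 (adjusted p = 0.00495). SNAI2, which encodes the zinc-finger repressor SLUG, differed by -0.50 ± 0.10 (adjusted p = 0.00747) and TWIST1 by -0.43 ± 0.11 (adjusted p = 0.0184). The 3 factors that differed between these clones therefore did not share a direction. FN1, fibronectin, and PLOD2 were higher in clone 9 by 0.45 and 0.49.

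Both basement membrane collagen genes were higher in wild-type clone 9 of HT1080. COL4A1 read -0.47 and -0.53 in clone 2 and 0.44 and 0.55 in clone 9, a difference of 0.99 ± 0.10 (adjusted p = 8.41e-05). COL4A2 read -0.30 and -0.58 in clone 2 and 0.038 and 0.18 in clone 9, a difference of 0.55 ± 0.13 (adjusted p = 0.017). The genes lie head to head on chromosome 13, 127 bases apart, and are known to share a bidirectional promoter, which is why their windows are shown. The median of the 346 genes measured on chromosome 13 was -0.0074 in clone 2 and 0.035 in clone 9. Both windows are from RefSeq, GRCh38.p14. That of COL4A1 is on the minus strand at chr13:110307108-110307407 and that of COL4A2 on the plus strand at chr13:110307034-110307333, so that they share 226 bases in opposite orientation. Capitals mark GGGCGG or its complement CCGCCC.
COL4A1: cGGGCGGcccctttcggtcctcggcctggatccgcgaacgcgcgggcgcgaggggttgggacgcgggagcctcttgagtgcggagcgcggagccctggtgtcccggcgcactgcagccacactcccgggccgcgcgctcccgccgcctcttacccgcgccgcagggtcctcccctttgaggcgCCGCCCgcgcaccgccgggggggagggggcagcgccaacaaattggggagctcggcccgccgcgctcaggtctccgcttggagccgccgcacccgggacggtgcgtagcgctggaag
COL4A2: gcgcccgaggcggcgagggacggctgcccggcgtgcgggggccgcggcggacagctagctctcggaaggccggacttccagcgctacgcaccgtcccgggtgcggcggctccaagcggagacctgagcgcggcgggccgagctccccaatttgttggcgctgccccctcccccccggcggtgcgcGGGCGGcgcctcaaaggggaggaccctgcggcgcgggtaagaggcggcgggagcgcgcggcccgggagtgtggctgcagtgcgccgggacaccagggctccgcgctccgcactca

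Between the HT1080 knockout clones, given as clone 21 minus clone 8, 6 of the 8 matrix glycoprotein genes differed (FN1, SPARC, THBS1, TGFBI, TNC and FSTL1), among the 14 members that did. COL1A2 was higher in clone 21 by 1.88 ± 0.10 (adjusted p = 1.57e-06), and its second probe followed across the 4 clones (r = 0.982). THBS1 read -0.51 and -0.54 in clone 8 and 1.03 and 1.02 in clone 21, a difference of 1.55 ± 0.092 (adjusted p = 2.39e-06). BGN was higher by 1.38 ± 0.12 (adjusted p = 6.42e-05) and SPARC by 1.28 ± 0.11 (adjusted p = 5.23e-05). These 4 members were thus higher in clone 21, as were FN1 by 1.11, PDGFRB by 0.85, COL6A3 by 0.72, TGFBI by 0.51 and PLOD2 by 0.41. The other FN1 probes followed the first across the clones (r = 1.00 and r = 0.963).

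Other members were lower in HT1080 knockout clone 21 than in clone 8. LOX differed by -1.16 ± 0.091 (adjusted p = 2.37e-05), TNC by -0.95 ± 0.12 (adjusted p = 0.000718) and SNAI2 by -0.94 ± 0.10 (adjusted p = 0.000274). SNAI2 read 0.16 and 0.34 in clone 8 and -0.79 and -0.60 in clone 21, and its second probe followed (r = 0.98 over 4 clones). COL12A1 and FSTL1 were lower by -0.55 and -0.54. The second COL12A1 probe did not follow the first (r = -0.050 over 4 clones), and COL12A1 did not pass with the mean of its probes. Clone 21 held the highest value of 13 members and clone 8 the lowest of 13, and wild-type clone 9 was also the highest for 13. Of these values, 6 in clone 21 and 5 in clone 9 were above 0.3, and 6 in clone 8 were below -0.3. The ranks of all genes over these clones were not counted.

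PDGFRB, LOX, FN1, PLOD2, TGFBI and SNAI2 differed between clones within both genotypes of HT1080. For LOX the genotype difference of -1.40 was larger than either clone difference, and for the other 5 it was smaller than both. VIM, ACTA2, COL12A1 and THBS1 differed within both genotypes of HCT116. Among all genes, 15.7% differed between the wild-type and 5.56% between the knockout clones of HT1080. In HCT116, 11.9% and 14.5% did. The share of all genes that differed within both genotypes of a line was not counted, so these members cannot be set against it.

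Of the 39 genes, 27 were matched by symbol to a RefSeq promoter table, with 39 windows of 250 bases before to 50 after a start. The motifs were searched on both strands, and a match that overlapped an earlier match of the same motif was not counted. The E-box bound by SNAI and ZEB factors, as CAGGTG or CACCTG, was in 12.8% of member windows and 20.6% of all 35116 windows. TATAAA was in 10.3% of member windows and 11.5% of all. GGGCGG, the GC box, was in 66.7% of member windows and 45% of all. The CArG box of serum response factor, added after seeing the data, was in 0 of the 39 member windows and 1.29% of all windows. These matches describe the letters of the windows only.

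Genes that act with the 39 were read from further lists, and 0 genes of any list passed the adjusted threshold in either line. Over all genes, 65.1% were higher in the HCT116 knockout clones and 57.3% were lower in those of HT1080, which are the shares to set beside the counts that follow. Of 27 TGF-beta ligands, receptors and SMADs, 14 were higher and 13 lower in the HCT116 knockout clones (median 0.013), and 9 were higher and 18 lower in those of HT1080 (median -0.085). In HT1080 the latency-associated LTBP4 had a difference of -0.54 ± 0.20, the co-receptor ENG one of -0.47 ± 0.11 and the receptor TGFBR2 one of -0.46 ± 0.10 (adjusted p = 0.885 for each). Of 15 TGF-beta target genes, 8 were lower in HCT116 and 11 in HT1080 (medians -0.048 and -0.14). The smallest adjusted p in all the lists was that of TGM2, transglutaminase 2, which also crosslinks matrix proteins, at -1.08 ± 0.13 in HCT116 (adjusted p = 0.0807).

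Whether the lists differed between the lines was not tested. Of 23 integrins and other matrix receptors, 19 were higher in the HCT116 knockout clones (median 0.069, beside 0.048 for all genes) and 19 were lower in those of HT1080 (median -0.16, beside -0.026). In HT1080 the clone means of 8 of the 23 were lower without overlap, where 22.5% of all genes were, including ITGA6 at -0.73 ± 0.19 and ITGA2 at -0.64 ± 0.14, the alpha chains of a laminin and a collagen receptor. ITGA4, an alpha chain of receptors for fibronectin and VCAM1, was higher without overlap at 0.68 ± 0.16 (adjusted p = 0.885). Of 22 further collagen enzymes and secretion factors, 13 were lower in HCT116 and 16 in HT1080, among them the crosslinking enzyme LOXL4 in HCT116 at -0.71 ± 0.20 and the procollagen peptidase enhancer PCOLCE2 in HT1080 at -1.89 ± 0.62. On the other side, the prolyl 3-hydroxylase complex genes CRTAP in HCT116 and P3H1 in HT1080 had differences of 0.29 and 0.30, without overlap. Each had the opposite sign in the other line, with CRTAP at -0.025 in HT1080 and P3H1 at -0.16 in HCT116. Of 38 further matrix genes, 28 were higher in HCT116 and 17 in HT1080 (medians 0.12 and -0.044). Of 18 actin and serum response factor targets, 9 were higher in HCT116 and 12 in HT1080, with the cardiac ankyrin repeat gene ANKRD1 at -0.89 ± 0.19 (adjusted p = 0.39) and the LIM-domain gene FHL2 at 0.66 ± 0.11 (adjusted p = 0.296) in HCT116.

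Markers of other cell types were read beside these results. Of 14 epithelial markers, 12 had higher values in the HCT116 knockout clones (median 0.20, beside 0.048 for all genes), and their mean per clone was between -0.31 and 0.072 in the wild type and between -0.22 and 0.33 in the knockout. The wild-type clone with the lowest mean was clone 20, which had the highest clone means of VIM and TWIST1. Other mesenchymal genes did not follow, since TAGLN was highest in wild-type clone 23 and ACTA2 in knockout clone 10. CDH2 and FN1 were at -0.031 and -0.036 in clone 20, but their ranges over the HCT116 clone means were only 0.10 and 0.071. In HT1080, 11 of the 14 epithelial markers were lower (median -0.078) and their means per clone lay between -0.058 and 0.036. Of 6 colon markers, 5 were higher in HCT116 and 2 in HT1080, and of 7 endothelial and leukocyte markers, 6 and 3 were. The means of the 6 colon markers and of the 7 endothelial and leukocyte markers stayed between -0.094 and 0.13 in all 10 clones. Since the values are centred, levels at or near 0 expression could not be identified, and the part of these markers in the matrix gene differences was not tested.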

How the data were processed

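Total RNA was purified on QIAGEN RNeasy columns and labelled with biotin by the Ambion MessageAmp kit, per the labels' protocols, and hybridised to Illumina arrays. The authors deposited 1 table of 47323 probes for 24 arrays. Its deposited values are on a log scale, taken as log2 because the base is not stated, and each probe is centred on the median of the arrays of its line. Background correction, normalization and software are not given in the sources used here. Probes with 1 gene symbol (30113 probes) were kept, symbols updated through RefSeq, and each of 20046 genes was represented by its probe of largest variance over 20 arrays.

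The mean of the 2 arrays of a clone was 1 replicate. Genotypes were compared within each line with limma 3.58.1 in R 4.3.3 (lmFit, eBayes; two-sided p adjusted over all genes by Benjamini-Hochberg, threshold 0.05), the difference between lines by an interaction, and clones of a genotype by a moderated F-test or contrast over arrays. P-values measure the spread between these clones or arrays only. The scripts were tested on simulated data. Array values were given for the 10 members with the largest difference in each line and for some members of the clone comparisons. Ranges or differences were given for the 5 members with the widest range in each clone comparison. Differences were given for up to 3 genes of each further list in a line. The members, lists and tests were chosen with earlier results of these data known. Genes of the lists without a value in the table were not analysed here. Alternatives covered probe choice, centring of arrays, a variance filter, the robust prior, single arrays, the array number as a block and leaving out each clone or array.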

Additional observations from a re-analysis of the deposited data

How the results depend on the processing

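With 2 or 3 clones a genotype, the number of clones limits every genotype comparison, and centred values give no signal over background. Of the differences of the 10 named members per line, 138 of 140 values under alternatives in HCT116 and 117 of 120 in HT1080 kept their direction and their side of the threshold. The HCT116 median difference of the members, 0.018, was -0.072 with genes of low variance left out, which left 20 members. The HT1080 median, -0.039, ranged from -0.092 to 0.037 when each clone was left out, without wild-type clones 2 and 9. The FSTL1 difference in HCT116 ranged from -0.40 to 0.029, and in HT1080 those of TNC from -0.10 to 0.84, COL1A2 from -0.079 to 1.80 and BGN from -0.23 to 1.15, as clones were left out; 1 clone set each sign. The HCT116 members higher without overlap numbered 6, or 0 with arrays centred on their medians and 2 with the first arrays alone. The interaction gave 0 members, and 1 without HT1080 wild-type clone 9 (TAGLN) or without HT1080 knockout clone 8 (COL1A2). Clone differences gave 6 to 9 and 6 to 8 members in HCT116 wild-type and knockout clones, and 9 to 13 and 11 to 14 in HT1080. The A and B numbers do not pair the arrays of different clones (correlations of A minus B between genotypes from -0.183 to 0.186 in HCT116 and from -0.0457 to 0.154 in HT1080). With the array number as a replicate block and the clone as a random block, 1 member passed in HCT116 (SERPINH1, adjusted p = 0.0081), 2 in the interaction (LOX and TWIST1) and 1 in both lines together (SERPINH1), against 0 in each without the block and with all clones; the cause was not tested. Scanner background correction and the slide as a block were not run, since the table holds neither.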
